A study of Mus musculus with 3 samples.

Results

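The HoxA window is a stretch of 2.4 Mb on mouse chromosome 6 (mm10, 50600000 to 53000000) that holds the HoxA cluster and the sequence on either side of it. LMX1B chromatin immunoprecipitation with sequencing (ChIP-seq) gave 2 lists of intervals, stretches of DNA that the authors listed as enriched. All intervals with a midpoint in this window were taken: 13 of the 1287 intervals of the first ChIP and 45 of the 4501 of the validation ChIP, 58 of 5788 in all. The window was chosen because earlier results on these lists had shown many intervals there, so how many it holds, and how they score, are descriptions without a test.

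Both samples were taken at embryonic day 12.5 from C57BL/6 mice, with fore- and hindlimb buds pooled in 2 runs of 48 limb buds each, precipitated with the same polyclonal LMX1B antibody, BMO8. The track name of the first ChIP calls its limb buds wild-type. That of the other sample, titled a validation of BMO8 and called the validation ChIP here, gives no genotype. Each is a single sample made from pooled embryos and from whole limb buds, so there is no spread between replicates, and cells of the dorsal and ventral limb and of all tissue layers contributed to each value. An input sample, for which wild-type and mutant chromatin had been pooled, entered no comparison. Each interval has a summit and a whole-number score given by the authors, with no stated unit. Scores are compared within a list only. Sequencing depth is unknown, because interval lists carry no read counts.

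LMX1B is a LIM homeodomain transcription factor that gives the limb mesenchyme its dorsal character. HoxA genes encode homeodomain transcription factors that set position along the body axis and along the limb. In the limb, genes at the 5′ end of the cluster (Hoxa9 to Hoxa13) are known for patterning the upper arm, forearm and hand in turn. Hox clusters are read under the control of distant enhancers in the flanking DNA, and sequence on the Hoxa13 side, beyond Evx1, is known to drive HoxA genes in the developing digits.

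In the RefSeq tables of the same assembly (GRCm38.p6), the HoxA genes that have a listed start site are all on the minus strand. Hoxa13 is therefore the 5′ end of the cluster, at the higher coordinates, and the 3′ end lies at the lower ones. The cluster is taken here as the stretch from Hoxa2 to Hoxa13. The stretch called a desert here runs from Npvf to Nfe2l3, over 778 kb at the lower coordinates. It is thus beyond the 3′ end of the cluster, separated from it by Nfe2l3, Hnrnpa2b1, Cbx3, Snx10 and Skap2, and is upstream of it by coordinate only. It holds 1 annotated protein-coding gene, the predicted Gm38821, besides Mir148a and many long non-coding RNAs. The gene table has no exons, so exons, introns and untranslated regions were not resolved.

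Of the 58 intervals, 4 reached into a promoter of the RefSeq table (250 bases before to 50 after a start site), at 3 genes. The 250 bases before each of these start sites are shown, 5′ to 3′ on the minus strand. They and the 50 promoter bases after each start hold the only interval sequence that was used here. For Hoxa3 (mm10, chr6:52213068-52213317), capitals mark the bases inside an interval. The 99 capitals at the 5′ end belong to a validation interval, the 30 at the 3′ end to a first-ChIP interval, and 121 bases between them to neither.
Hoxa3: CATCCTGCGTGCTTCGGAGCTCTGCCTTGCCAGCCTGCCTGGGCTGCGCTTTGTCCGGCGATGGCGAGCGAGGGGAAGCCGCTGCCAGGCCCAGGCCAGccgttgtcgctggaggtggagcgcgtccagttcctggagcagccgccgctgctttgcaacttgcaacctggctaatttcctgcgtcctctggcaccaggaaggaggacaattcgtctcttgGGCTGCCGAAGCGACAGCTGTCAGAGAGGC
The next sequences lay wholly inside a validation interval, and capitals mark ATTA or its reverse complement TAAT, the core that homeodomain proteins are known to bind. One is from Gm32328 (mm10, chr6:51129380-51129629), a long non-coding RNA of the desert, and the other from Hibadh (mm10, chr6:52640301-52640550), which encodes an enzyme of valine breakdown.
Gm32328: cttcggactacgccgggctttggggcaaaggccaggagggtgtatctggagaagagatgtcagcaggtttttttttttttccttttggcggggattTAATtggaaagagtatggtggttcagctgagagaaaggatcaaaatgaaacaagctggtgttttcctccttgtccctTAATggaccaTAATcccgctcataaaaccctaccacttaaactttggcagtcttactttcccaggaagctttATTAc
Hibadh: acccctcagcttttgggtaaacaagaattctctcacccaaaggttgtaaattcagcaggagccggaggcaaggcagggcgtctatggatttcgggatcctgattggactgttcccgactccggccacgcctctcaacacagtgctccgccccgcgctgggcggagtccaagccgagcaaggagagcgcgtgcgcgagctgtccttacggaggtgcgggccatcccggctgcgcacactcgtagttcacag

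The sequence before Gm32328 had 4 such cores and that before Hibadh had 0. The 1 core of Hoxa3 starts at base 172 from the 5′ end, in the stretch that no interval covered. The longer word TAATTA, which LIM homeodomain proteins are known to bind and which reads the same on both strands, was in none of these 3 sequences. Of all 32851 listed promoters, each of 300 bases, 5.29% hold TAATTA and 58.0% hold ATTA or TAAT. The counts in these 3 sequences are therefore a description and cannot be read as particular to the intervals.

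An interval counts as shared here if it and an interval of the other ChIP have 1 bp or more in common. In the window, 10 of 13 first-ChIP intervals (76.9%, 95% Wilson interval 49.7 to 91.8) were shared, against 54.9% of the whole list. Of the 45 validation intervals 9 were shared (20.0%, Wilson interval 10.9 to 33.8), against 15.6% of the whole list. The whole-list share lay inside the interval in each case. This cannot decide whether the window differs from the lists, because intervals of 1 sample are not replicates. The window was also picked with these lists in view. The Wilson interval treats neighbouring stretches as independent, which they are not. Under a stricter rule, overlap by 50% of both or more, 4 of 13 first-ChIP (30.8%) and 4 of 45 validation intervals (8.89%) were shared, against 35.8% and 10.2% of the whole lists. A further track of the authors, named Active Regions, repeated 11 of the 13 first-ChIP intervals, against 57.1% of the whole list. The 11 were the 10 shared intervals and the one at the start of Hoxa3.

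The window held 5.42 first-ChIP intervals per Mb, against 0.489 per Mb over the whole list, and 18.8 validation intervals per Mb, against 1.71 over the whole list. Both were about 11 times the whole-list density (11.1 in the first ChIP and 10.96 in the validation ChIP). Autosomes and X were also divided into 1085 windows of the same length in register with this one. The HoxA window had the most validation intervals of all, 45, against a median of 3 over all windows. It also had the most shared first-ChIP intervals, 10, against a median of 0. Only 1 other window had as many as its 13 first-ChIP intervals, and the median there was 1. Since the region was picked with these lists in view, its place in that order is a description.

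**Figure D1:**
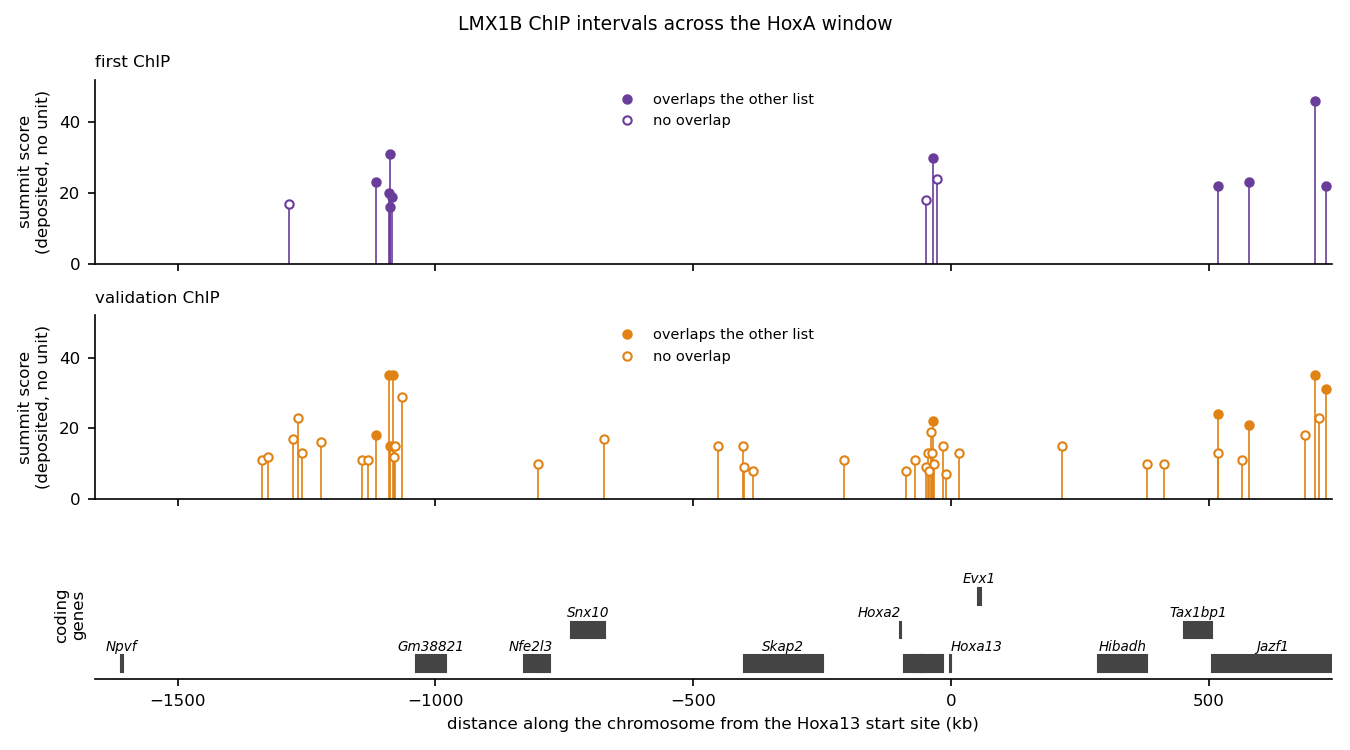
Summit scores of all 58 intervals in the HoxA window, first ChIP above and validation ChIP in the middle, against distance in kb from the Hoxa13 start site, with protein-coding genes at the bottom; filled dots overlap an interval of the other list. The 13 first-ChIP intervals fall in 3 groups, of 6 in the desert, 3 in the cluster and 4 in Jazf1, while the 45 validation intervals also lie between these groups.

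First-ChIP intervals lay in 3 separate groups: 6 in the desert (5 shared), 3 between Hoxa2 and Hoxa13 (1 shared) and 4 in Jazf1 (all shared). From the last in the desert to the first in the cluster, 1036 kb held none. Validation intervals followed the same groups, with 15 in the desert (4 shared), 11 in the cluster (1 shared) and 8 in the part of Jazf1 inside the window (4 shared). The other 11, none of them shared, lay between these groups. The longest gap between neighbouring validation intervals, 261 kb, ran from the desert to just beyond Nfe2l3, and the window began with 324 kb that held none.

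The cluster was the densest part by length in both lists. It held 3.05 first-ChIP intervals per 100 kb over its 98.5 kb, against 1.72 in Jazf1 and 0.771 in the desert. In the validation ChIP it held 11.2 per 100 kb, against 3.45 in Jazf1 and 1.93 in the desert. By median score the lists ordered these parts differently. The median first-ChIP score was 24 in the cluster, 22.5 in Jazf1 and 19.5 in the desert. The median validation score was 11 in the cluster, 22 in Jazf1 and 15 in the desert. The highest scores were in Jazf1 in the first ChIP (46, against 30 in the cluster and 31 in the desert) and in Jazf1 and the desert in the validation ChIP (35 in each, against 22 in the cluster). These ranges overlapped within each list.

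**Figure D2:**
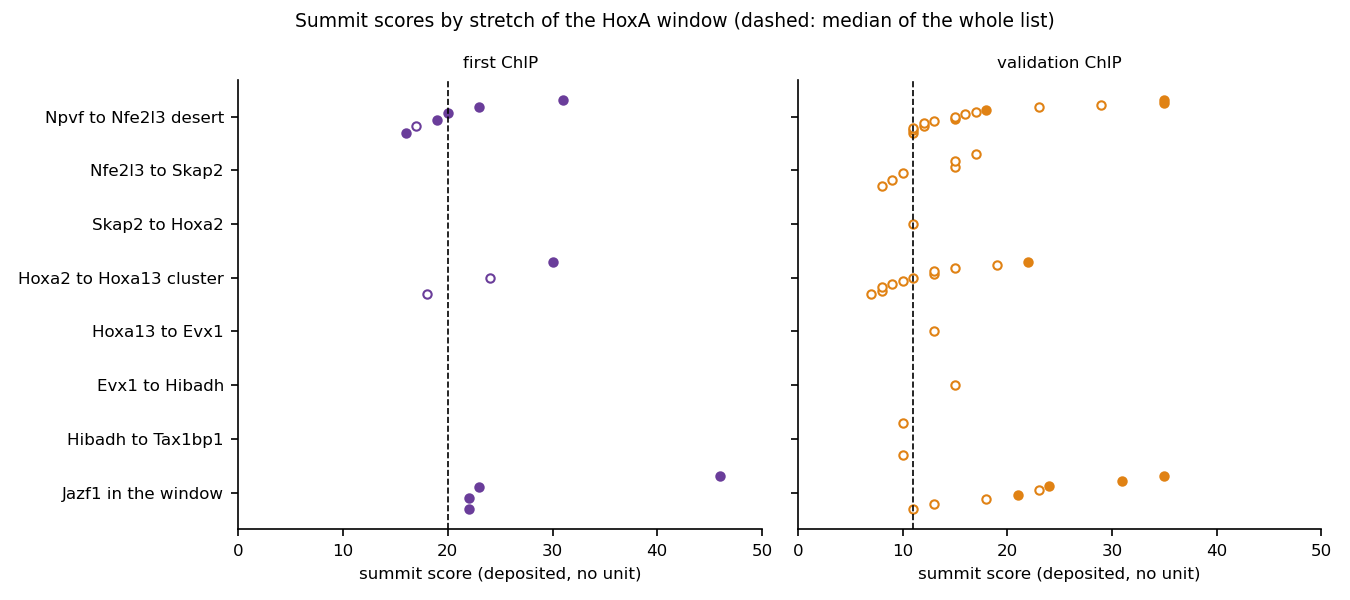
Summit scores (horizontal axis, deposited values without a unit) of every interval by stretch of the window, first ChIP on the left and validation ChIP on the right; filled dots overlap the other list and the dashed line is the median of the whole list, 20 and 11. The scores above 25 in either list lie in the desert, the cluster and Jazf1.

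The strongest cluster interval lay in Hoxa9, a gene of the posterior cluster that acts in the proximal limb and in blood stem cells. It was the only shared interval between Hoxa2 and Hoxa13. The first ChIP listed it at 52225975 to 52226836 with a score of 30, which 10.1% of that list reached. The validation ChIP listed it at 52225848 to 52227153 with a score of 22, which 5.22% of its list reached. It lay inside the gene body (52223097 to 52227370), and its summits were 794 and 1082 bp downstream of the Hoxa9 start site. The first-ChIP interval lay wholly within the validation interval, and their summits were 288 bp apart.

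Around Hoxa9 the validation ChIP had 3 further intervals without a first-ChIP partner. One at 52221626 to 52222257 had a score of 19, the highest unshared validation score of the cluster, and lay 1.16 kb beyond the 3′ end of Hoxa9. One with a score of 13 (52222996 to 52223655) straddled that end. One with a score of 10 (52227882 to 52228516) lay 0.829 kb beyond the 5′ end of Hoxa9, in the long non-coding RNA Gm52902.

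Hoxa10, which is known for patterning the upper limb segment and the uterus, had an interval in the first ChIP only. It lay at 52233908 to 52234373 in the gene body, with a score of 24, which 23.9% of that list reached. RefSeq gives Hoxa10 a distal start at 52240854 and an internal one at 52234939, and the summit was 859 bp downstream of the internal one. The nearest validation interval was 5.39 kb away.

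Hoxa11, which patterns the forearm, had an interval in the validation ChIP only, at 52243773 to 52244853 with a score of 15. Its summit was 1314 bp downstream of the Hoxa11 start site and 747 bp upstream of that of Hoxa11os, the antisense RNA of Hoxa11. An enhancer inside Hoxa11 is known to drive this antisense transcription in the distal limb. Whether the interval lies on it was not tested. The nearest first-ChIP interval was 9.40 kb away.

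Hoxa13, which is required for digits, had no interval in its body (52258853 to 52260880). The nearest was a validation interval 7.45 kb away at 52251188 to 52251628, between Hoxa11 and Hoxa13, whose score of 7 was the lowest of the window. On the other side a validation interval with a score of 13 lay at 52276106 to 52276822, 15.6 kb from Hoxa13 and 8.86 kb beyond Hottip, a non-coding RNA at the 5′ end of the cluster. The nearest first-ChIP interval was the one in Hoxa10, 24.7 kb from Hoxa13.

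Hoxa3, which patterns pharyngeal organs such as the thymus, has an annotated body of 44.0 kb that spans Hoxa4, Hoxa5 and Hoxa6. The first ChIP had an interval across its start site, at 52212731 to 52213097, with a score of 18 and a summit 139 bp downstream of the start. The validation ChIP had one 121 bp away, at 52213219 to 52213668, with a score of 9 and a summit 357 bp upstream. They did not overlap and were not counted as shared. The sequence shown for Hoxa3 holds one end of each. Both midpoints also lie in Hoxaas3, a non-coding RNA annotated over Hoxa5 and Hoxa6.

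Further inside Hoxa3, validation intervals lay at 52174356 to 52174811 (score 8) and at 52190741 to 52191157 (score 11). The second is also in the body of Hoxa4. Hoxa7 had validation intervals at 52216596 to 52217018 (score 13) and 52217786 to 52218287 (score 8). The summit of the second was 461 bp downstream of the Hoxa7 start. No first-ChIP interval lay in Hoxa4 or Hoxa7.

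Towards the 3′ end of the cluster, Hoxa2, which sets the identity of the hindbrain and the second pharyngeal arch, had no interval in its body. The nearest lay 48.1 kb away in the first ChIP and 9.75 kb away in the validation ChIP. Hoxa5, known for its role in lung and axial skeleton, also had none, with the nearest at 8.33 kb and 8.86 kb. Hoxa6 had none either. The stretch from the start of Hoxa3 to beyond Hoxa11, 38.9 kb, thus held all 3 first-ChIP intervals and 9 of the 11 validation intervals of the cluster.

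**Figure D3:**
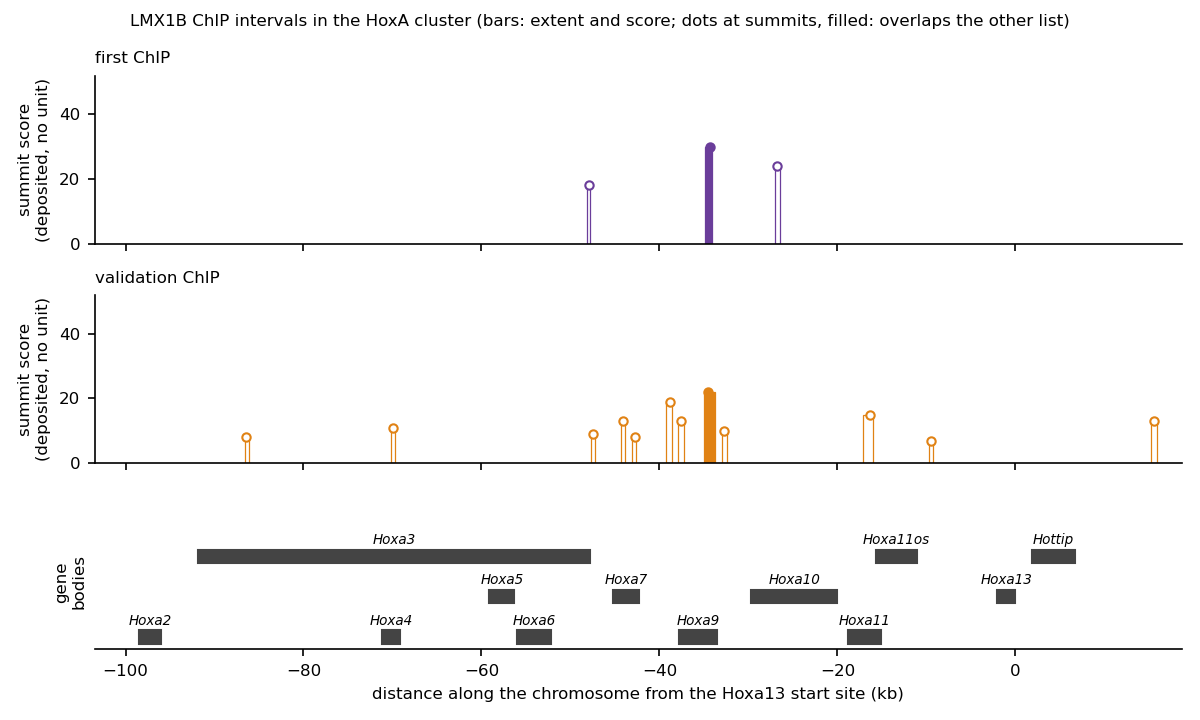
Intervals of the first ChIP (top) and the validation ChIP (middle) in the HoxA cluster, drawn to their width, with height the summit score and a dot at each summit, filled where the interval overlaps the other list; gene bodies are at the bottom and the horizontal axis is distance in kb from the Hoxa13 start site. The shared interval in Hoxa9 has the highest score of the cluster in each list, 30 and 22.

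Evx1, the homeobox gene next to Hoxa13, had no interval in its body (52313498 to 52318389). The nearest lay 79.4 kb away in the first ChIP and 37.0 kb away in the validation ChIP, both on the Hoxa13 side. In all, 5 of the 9 genes that mark the window (Hoxa2, Hoxa5, Hoxa13, Evx1 and Npvf) had no interval in their bodies. First-ChIP intervals lay in Hoxa3, Hoxa9 and Hoxa10, and validation intervals in Hoxa3, Hoxa9 and Hoxa11. The bodies differ in length, from 2.03 kb for Hoxa13 to 44.0 kb for Hoxa3. No share over all genes is given, so these counts only describe where the intervals lie.

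The desert held a tight group of intervals. Npvf, at its far end, encodes a precursor of hypothalamic neuropeptides and had no interval in its body (50650672 to 50654445). The nearest intervals inside the window were 323 kb away in the first ChIP and 270 kb away in the validation ChIP. A shared pair before the window's start was closer to Npvf, 146.5 kb away in each list. Between 51170274 and 51197784, a stretch of 27.5 kb outside annotated genes, lay 4 first-ChIP intervals, all shared, and 6 validation intervals, 3 of them shared. The nearest protein-coding gene was the predicted Gm38821, 45.97 to 51.5 kb from the first-ChIP midpoints.

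In this group the first ChIP scored highest at 51172918 to 51173695, with 31, which 8.94% of the list reached. That interval and a weaker one beside it, at 51172545 to 51172825 with a score of 16, overlapped the same validation interval, at 51172791 to 51173801. The overlap was 778 bp for the stronger one and 35 bp for the weaker one. The validation score there was 15, so the strongest first-ChIP interval of the group was not among the strongest validation intervals.

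The validation ChIP instead scored highest on either side, with 35 at 51170274 to 51171561 and 35 at 51176679 to 51179216. Only 0.800% of its list reached that score. The first-ChIP partners scored 20 (51171167 to 51171656) and 19 (51176851 to 51177133). The second validation interval was 2538 bp wide, the widest of the window, and its summit lay 1344 bp from that of its partner. No pair of the whole lists had summits farther apart.

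Without a first-ChIP partner, the validation ChIP listed 3 more intervals in the group, at 51179674 to 51180340, 51180569 to 51182240 and 51196199 to 51197784, with scores of 12, 15 and 29. The last was the highest unshared validation score of the window, and 1.76% of the list reached it. It lay 19.1 kb from the nearest first-ChIP interval.

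Next to this group, on the Npvf side, a shared interval lay in the non-coding RNA Gm32328, with the first-ChIP midpoint also in Gm32246. The first ChIP listed it at 51145893 to 51146236 with a score of 23 and the validation ChIP at 51145747 to 51146558 with a score of 18. Its summits were 16 bp apart, the closest of the window. The remaining first-ChIP interval of the desert, at 50977262 to 50977591, scored 17 and was 6.68 kb from the nearest validation interval. The other 8 validation intervals of the desert, between 50923910 and 51129648, were not shared. Their scores were 11, 12, 17, 23, 13, 16, 11 and 11 in order of position, with the highest, 23, at 50993889 to 50994584 in the non-coding RNA Gm46959. The last of them covers an internal start site of Gm32328, whose upstream sequence is shown above, with its summit 61 bp before that start.

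**Figure D4:**
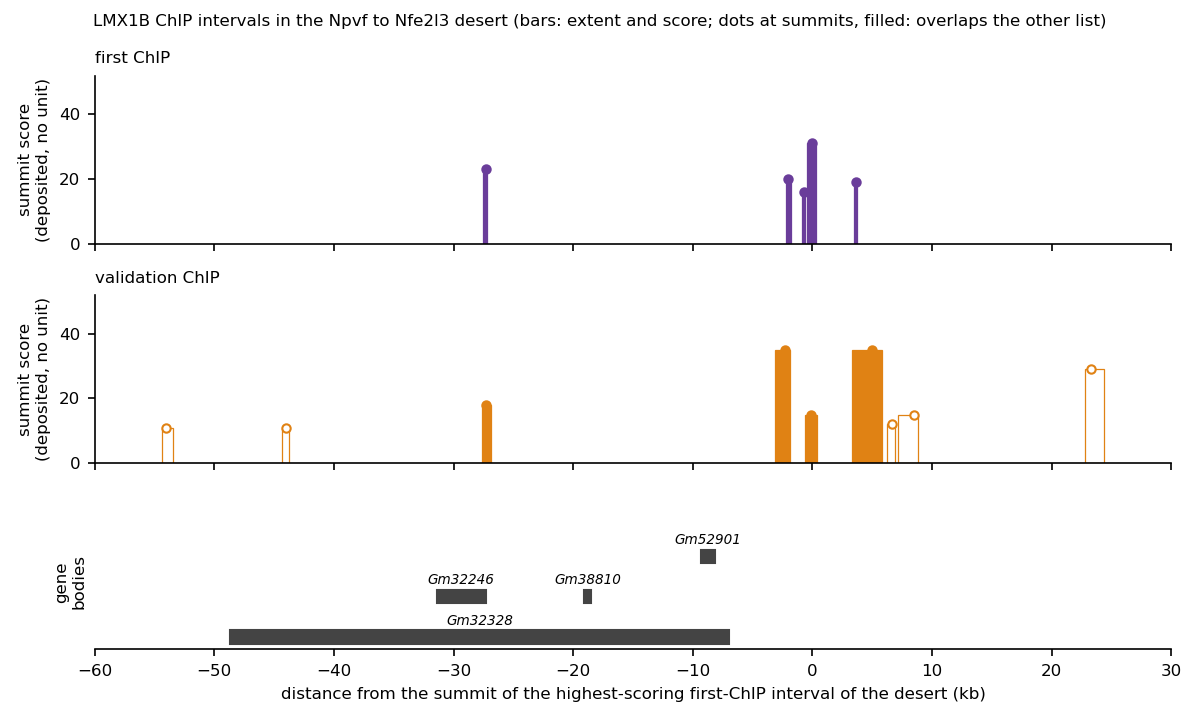
Intervals of the first ChIP (top) and the validation ChIP (middle) in part of the desert, drawn to their width, with height the summit score and a dot at each summit, filled where the interval overlaps the other list; annotated non-coding RNAs are at the bottom and the horizontal axis is distance in kb from the summit of the first-ChIP interval with a score of 31. The validation intervals with a score of 35 flank the one that overlaps it, which has a score of 15.

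Jazf1, which encodes a zinc finger protein known as a transcriptional cofactor, lies on the Hoxa13 side of the cluster and held all first-ChIP intervals found there. Its body (52768065 to 53068624) runs past the window's end. The interval with the highest first-ChIP score of the window lay in it, at 52967484 to 52968066, with 46, which 2.02% of the list reached. Its validation partner, at 52967234 to 52968147, scored 35, the highest value of the window in that list too. Their summits were 96 bp apart, 649 kb from Evx1, and also lay in the non-coding RNA Gm33219.

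The other 3 shared intervals of Jazf1 had first-ChIP scores of 22, 23 and 22 and validation scores of 24, 21 and 31. In the first ChIP they lay at 52778493 to 52778796, 52838138 to 52838982 and 52987501 to 52987929. Their validation partners were at 52778258 to 52779065, 52838009 to 52839109 and 52987394 to 52988433. Summits were 32, 304 and 32 bp apart, so that 3 of the 4 pairs in Jazf1 had summits within 100 bp. In the desert 1 of 5 did and in the cluster 0 of 1. Over all 709 pairs of the lists 73.8% did, so the count in Jazf1 is near that share. The desert pairs with first-ChIP starts at 51172545 and 51172918 have the same validation interval. None of the 4 shared Jazf1 intervals lay near a listed Jazf1 start site, with the nearest first-ChIP summit 58.2 kb from the internal start at 52909620.

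The validation ChIP had 4 further intervals in this part of Jazf1, at 52779133, 52824814, 52947835 and 52974751, with scores of 13, 11, 18 and 23. The first of them began 336 bp beyond a first-ChIP interval. The last lay in Gm33219, with its summit 1093 bp downstream of that RNA's start.

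**Figure D5:**
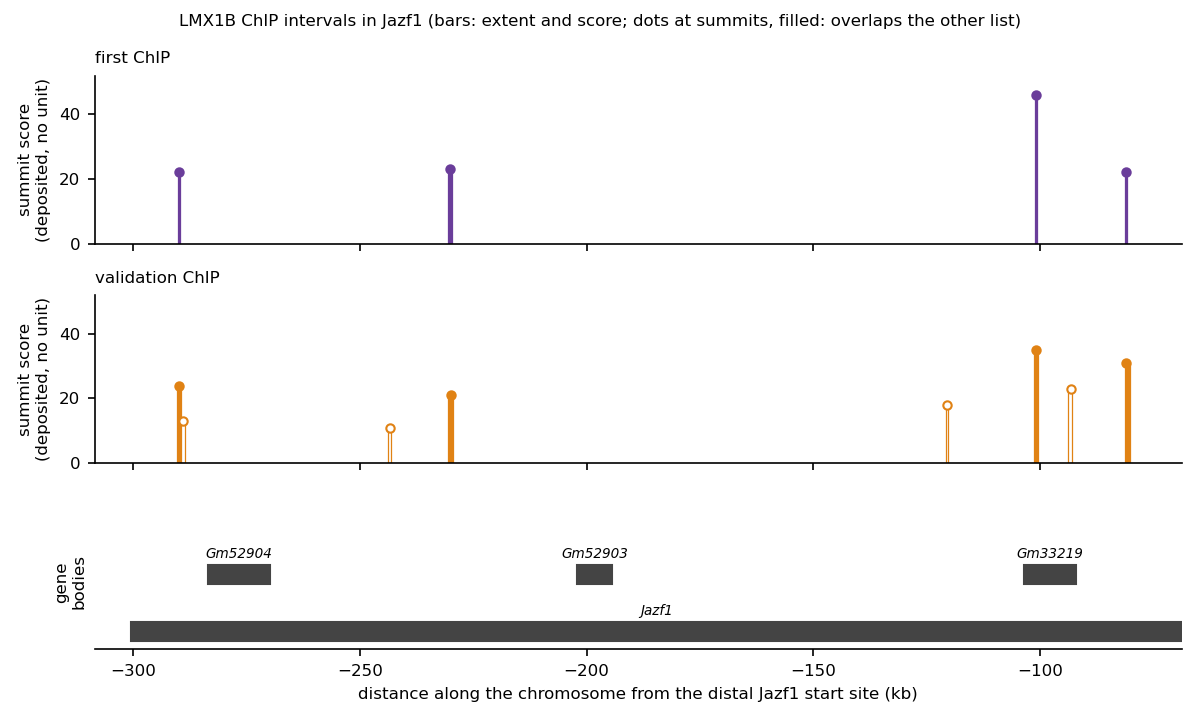
Intervals of the first ChIP (top) and the validation ChIP (middle) in the part of Jazf1 inside the window, drawn to their width, with height the summit score and a dot at each summit, filled where the interval overlaps the other list; the horizontal axis is distance in kb from the distal Jazf1 start site and gene bodies are at the bottom. All 4 first-ChIP intervals have a filled partner below, and the tallest bar is the same pair in each list, 46 and 35.

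Between these groups the first ChIP listed nothing, and the validation ChIP listed 11 intervals with scores of 8 to 17. From Nfe2l3 to Skap2 there were 6. One lay 0.596 kb beyond Nfe2l3 (51459117 to 51459620, score 10), a gene for a bZIP factor. One lay in Snx10, a sorting nexin gene (51588252 to 51589042, score 17), and 4 lay in or within 49.6 kb of Skap2, which encodes a signalling adaptor, with scores of 15, 15, 9 and 8. A further one was 41.7 kb from Skap2 on the side of the cluster (score 11). No interval of either list lay in Hnrnpa2b1 or Cbx3, which encode an RNA-binding protein and a heterochromatin protein.

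Beyond Evx1, on the side of the known digit enhancers, the validation ChIP had 3 intervals before Jazf1. They were at 52476657 to 52477284 (score 15), 52640184 to 52640790 (score 10) and 52673558 to 52674054 (score 10). The second covers the start site of Hibadh, with its summit 132 bp upstream of it, and its sequence is shown above. Neither the body of Hibadh nor that of Tax1bp1, an autophagy receptor gene, held a midpoint of either list. No enhancer positions were used here. Whether intervals beyond Evx1, those in Jazf1 included, lie on digit enhancers was not tested.

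Shared intervals had higher median scores than unshared ones, as over the whole lists, with overlapping ranges. In the window the median first-ChIP score was 22.5 for the 10 shared and 18 for the 3 unshared intervals, and the whole-list medians were 22 and 18. The ranges were 16 to 46 and 17 to 24. The median validation score was 24 for the 9 shared and 12.5 for the 36 unshared intervals, and the whole-list medians were 16 and 11. These ranges were 15 to 35 and 7 to 29. Of all 13 first-ChIP intervals, 69.2% scored at least the whole-list median of 20, against 55.3% of the whole list. Of all 45 validation intervals, 77.8% scored at least the whole-list median of 11, against 57.6% of the whole list.

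The lists placed the shared intervals less closely here than over the whole lists. The 10 pairs of overlapping intervals in the window had summits a median of 214 bp apart (range 16 to 1344), and 4 of them (40%) were within 100 bp. Over all 709 pairs the median was 64 bp and 73.8% were within 100 bp. In each of the 10 pairs the first-ChIP interval was the narrower one, as in all but 55 of the 709. Widths in the window ran from 281 to 862 bp in the first ChIP (median 429, whole list 389) and from 353 to 2538 bp in the validation ChIP (median 717, whole list 571). The 10 pairs include 2 that share a validation interval, and the difference was not tested.

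Few intervals covered a listed start site. Of 13 first-ChIP intervals 1 did, and of 45 validation intervals 2 did. Within the cluster, the 3 first-ChIP summits were 139, 794 and 859 bp from the nearest listed start. The validation summits there were 357 to 13595 bp from one. Midpoints lay outside the bodies of all annotated genes, non-coding RNAs included, for 4 of the 13 first-ChIP and 18 of the 45 validation intervals. No whole-list share is given for these location counts, so they cannot be read as particular to the window. The table lists 19 promoters of 300 bases with a start between Hoxa2 and Evx1. TAATTA was found in 1 of them (5.26%), that of Evx1os, a non-coding RNA beside Evx1, against 5.29% of all 32851 promoters. ATTA or TAAT was found in 13 of the 19 (68.4%), against 58.0% of all promoters. The unrelated word CACGTG, searched for comparison, was in 1 of the 19, that of the non-coding RNA Gm15050, against 7.15%. The 14 promoters of Hoxa2, Hoxa3, Hoxa5, Hoxa6, Hoxa7, Hoxa9, Hoxa10 (a pair), Hoxa11, Hoxa13, Hoxa11os, Hottip, Mira and Evx1 held TAATTA in 0 and ATTA or TAAT in 11. The promoter of Npvf, whose body was 146.5 kb from the nearest interval of either list, had TAATTA at 2 positions. The words were searched on both strands, and TAATTA contains ATTA. With no genome sequence used here, interval sequence outside the listed promoters was not searched.

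Among the 4 Hox clusters, HoxA had the most intervals of either list. It held 3 first-ChIP and 11 validation intervals from Hoxa2 to Hoxa13. Between the outermost genes of the others there were 1 and 7 in HoxD (chromosome 2), 2 and 1 in HoxC (chromosome 15) and 0 and 1 in HoxB (chromosome 11). Per 100 kb these were 3.05 and 11.2 in HoxA, 1.03 and 7.22 in HoxD, 1.73 and 0.864 in HoxC, and 0 and 0.575 in HoxB. HoxA had the only shared interval of the 4 clusters, that in Hoxa9. It was 1 of 3 in the first ChIP and 1 of 11 in the validation ChIP, against 54.9% and 15.6% of the whole lists. The HoxA window was picked with these lists in view, so its place among the clusters is a description. With 1 sample a list the differences between clusters have no replicate check and were not tested.

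At the window's borders, the nearest intervals outside were a shared pair 95.8 kb before its start, with scores of 22 in the first ChIP and 17 in the validation ChIP. Beyond its end the next first-ChIP interval lay 695 kb away with a score of 18. The next validation interval lay 20.5 kb away with a score of 14, still in Jazf1, which held 10 validation intervals over its whole body. Just inside, the first and last first-ChIP intervals scored 17 and 22, and the first and last validation intervals 11 and 31.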

How the data were processed

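LMX1B ChIP-seq was recorded in 2 limb bud samples at embryonic day 12.5. The submitters' processing notes name BWA and mm10. How peaks were called, the calling threshold and software versions were not given in the sources used here. The authors deposited, for each sample, intervals and summits with a score of unknown unit and normalization. The validation file repeats the 13 first-ChIP intervals of the window identically, and the copy was counted once. Its Active Regions track was counted beside the shared intervals, with its meaning not known here. Over the whole list it repeated 735 first-ChIP intervals, while 707 overlapped a validation interval, so the track is not the same as shared.

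Coordinates count from 1. Summits were taken as deposited, with equal start and end. Gene bodies, start sites and promoter sequences came from RefSeq tables of GRCm38.p6, whose chromosomes are those of mm10. All 9 genes that mark the window, and 6 of 10 further cluster genes and RNAs, had a listed promoter. One cluster gene is not reported here. Intervals were placed by midpoint, using Python 3.11.15 and pandas 2.3.3. All intervals in the window are named or counted. The genes named are those 9, other cluster genes, and coding genes that hold or border an interval. Members and gene lists were chosen with earlier results of these data known. Wilson intervals are at 95% and cover counting error only. Whole-list density used 2631 Mb, the sum over autosomes and X up to the last annotated gene. No test was made. Overlap counting was tested on simulated data.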

Additional observations from a re-analysis of the deposited data

How the results depend on the processing

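Each list is 1 sample of pooled limb buds, with unknown depth and an unknown calling threshold, so an unlisted stretch is not shown to be unbound, and which intervals a list holds near its lowest scores may depend on that threshold. No paired analysis was possible because each group has 1 sample and no test was made. The numbers of intervals, 13 and 45, did not change when any overlap with the window or the summit decided membership. They could not have changed, because no interval of either list reached across a border of the window. At scores of at least the whole-list median the numbers were 9 and 35. The shared count depended on how overlap was defined. Where 50% or more of both intervals had to overlap, 4 first-ChIP and 4 validation intervals of the window were shared, and with summits at most 100 bp apart there were also 4 and 4, since validation intervals are wider and summits lay apart. Over the whole lists, 35.8% of first-ChIP and 10.2% of validation intervals overlapped by at least 50% of both. With a gap of up to 500 bp allowed, 11 and 11 were shared, and 8 and 8 with scores of at least each list's median. Counting intervals with the same validation partner once, a setting chosen after seeing the data, gave 9. The Active Regions track, also looked at after seeing the data, repeated 11 first-ChIP intervals. Its meaning is not known here, so it is no check on the shared count.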
